A study of Rattus norvegicus with 19 samples.

Results

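The glutathione transferases described here are the genes Gstm1, Gstm2, Gstm4, Gstm5, Gstm7, Gsta4, Gstt1, Gstt2, Gstk1 and Mgst1, as measured in rat liver under 3 diets. An array probe was taken as a member where its gene name in the scanner files, or the current symbol behind its accession or synonym, was 1 of these 10 names. This gave 13 of 41012 non-control probes, for 9 of the 10 genes, among 15462 genes named on the array. Of these 13 probes, 11 were bright enough to be kept among the 25292 probes tested. Gsta4 had no probe by this rule. One probe, A_42_P531078, carries only a transcript identifier as its name but is described on the array as glutathione S-transferase alpha-4. It is given below as the alpha-4 probe, beside the members and outside their counts.

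The study used livers of 19 adult male Wistar rats. In the control group, with 7 rats, carbohydrate supplied 70%, fat 10% and protein 20% of dietary energy. In the high protein group, with 6 rats, protein, largely casein, supplied 45%, carbohydrate another 45% and fat 10%, so protein rose as carbohydrate fell. In the high fat group, also 6 rats, fat supplied 60%, carbohydrate 20% and protein 20%, so fat rose as carbohydrate fell. Diets began at 8 weeks of age and lasted 4 months, and livers were taken from fed rats early in the morning. RNA of 1 rat per array was labelled with Cy5 and a pool of liver RNA with Cy3. Each value below is a log2 ratio of rat to pool, so 0 stands for the level in the pool, and ratios of different probes are not set against each other as levels. In whole liver, fewer cells of a type and less RNA per cell cannot be told apart.

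Glutathione transferases are enzymes that join the tripeptide glutathione to reactive, mostly fat-soluble molecules, which can then be exported and excreted. The liver is rich in them and uses them to clear drugs, dietary toxins and products of lipid peroxidation. The soluble enzymes are pairs of subunits and fall into classes named by Greek letters. Mu-class genes lie side by side and are similar in sequence, the alpha and theta classes are further soluble families, the kappa enzyme sits in mitochondria and peroxisomes, and the microsomal enzymes are small membrane proteins of a separate family.

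Names of the mu-class genes have changed since the array was designed, and this decides which probe is called Gstm4. Probe A_44_P391068 is named Gstm4 on the array, but its accession now belongs to Gstm3. Probe A_44_P728149 is named MGC108896 on the array, and its accession now belongs to Gstm4. Probe A_42_P716352 is named Gstm3 on the array, and its accession now belongs to Gstm7. The current symbols are used below, so Gstm4 is A_44_P728149, Gstm7 is A_42_P716352, and A_44_P391068 is given as Gstm3, a member through its array name. On build rn4 of the rat genome, given by the scanner files, the Gstm4 probe lies at chr2:203606356-203606415, the Gstm7 probe at chr2:203491529-203491588 and the Gstm3 probe at chr2:203532382-203532441, all on the minus strand. Those for Gstm1 at chr2:203575796-203575855 and Gstm2, whose listed span is chr2:203551176-203552101, lie between them on the same strand. The Gstm5 probe with a RefSeq accession spans chr2:203457561-203457711 on the plus strand. No exon or UTR was assigned here, since no annotation of that build was used.

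The stretches just upstream of mu-class genes are shown because these neighbours gave different values across the diets. RefSeq promoters on build GRCr8 were matched by symbol for 9 of 11 genes (the 10 names and Gstm3), with Gstt1 and Gstt2 unmatched. The 250 bases before the start of Gstm4 (chr2:198373384-198373633), Gstm7 (chr2:198260320-198260569) and Gstm2 (chr2:198316918-198317167), all on the minus strand, read as follows from 5′ to 3′. Capitals mark letters of 3 motifs searched on both strands: the antioxidant response core TGACNNNGC, the xenobiotic response core GCGTG, and TATAAA.
Gstm4: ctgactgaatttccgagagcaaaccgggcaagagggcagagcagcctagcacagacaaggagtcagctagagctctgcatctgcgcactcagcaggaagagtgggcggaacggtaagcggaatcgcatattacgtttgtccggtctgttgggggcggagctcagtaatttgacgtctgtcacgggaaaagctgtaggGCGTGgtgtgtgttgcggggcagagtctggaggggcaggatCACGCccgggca
Gstm7: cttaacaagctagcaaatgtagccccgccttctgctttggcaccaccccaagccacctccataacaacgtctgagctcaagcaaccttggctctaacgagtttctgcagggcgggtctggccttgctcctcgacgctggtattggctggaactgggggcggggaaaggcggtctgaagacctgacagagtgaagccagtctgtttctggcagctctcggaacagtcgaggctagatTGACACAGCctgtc
Gstm2: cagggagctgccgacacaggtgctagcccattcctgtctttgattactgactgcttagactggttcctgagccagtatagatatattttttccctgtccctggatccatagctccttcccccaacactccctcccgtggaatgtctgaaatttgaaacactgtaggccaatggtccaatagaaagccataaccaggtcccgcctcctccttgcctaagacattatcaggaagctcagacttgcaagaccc

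In these windows Gstm4 held 2 copies of GCGTG, with outer ends 53 and 12 bases before the start, and no match to the other motifs. The Gstm7 window held 1 match to TGACNNNGC, beginning 14 bases before the start, and none to GCGTG or TATAAA. Gstm2 held none of the 3. Motifs were also held by genes with no called difference: the Gstm5 window had 2 matches to TGACNNNGC, 2 to GCGTG and 1 to TATAAA, and those of Gstm1 and Gstm3 had 1 match each, to TATAAA. The Gsta4 window had 3 matches to GCGTG, and those of Gstk1 and Mgst1 held none of the 3 motifs. Among 33469 promoters of the same length, 25.9% held GCGTG, 10.1% held TGACNNNGC and 12.9% held TATAAA. Among the 15 pairs of mu-class windows (Gstm1, Gstm2, Gstm3, Gstm4, Gstm5 and Gstm7), global alignment gave identities of 44.1% to 55.3% with a median of 49.3%, and Gstm4 and Gstm7 shared 49.0%. Unrelated windows were not aligned, so whether these identities exceed those of unrelated windows was not tested. A match is a run of letters and was not tested as a binding site.

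Gstm4 set the high protein rats apart from both other diets. Its log2 ratio lay between -0.86 and -0.53 in the 7 control rats (median -0.65), between 0.15 and 0.67 in the 6 high protein rats (median 0.28), and between -0.97 and -0.17 in the 6 high fat rats (median -0.53). Every high protein rat lay above every control rat and every high fat rat, while control and high fat rats overlapped. The high protein mean was 1.01 ± 0.12 (SE) higher than the control mean on the log2 scale, a 2.01-fold difference (limma, adjusted p = 0.00115), and 0.87 ± 0.12 higher than the high fat mean, a 1.82-fold difference (adjusted p = 0.000185). Against control this probe had the smallest p of all 25292 probes, and it ranked 105 between high protein and high fat. High fat minus control was 0.14 ± 0.12 (adjusted p = 0.610), with a 95% interval from -0.10 to 0.39. The spread was widest on high fat (SD 0.33, n = 6), against 0.12 in control (n = 7) and 0.18 on high protein (n = 6): rats 1, 4 and 6 on high fat lay between -0.31 and -0.17, and rats 2, 3 and 5 between -0.97 and -0.75.

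Gstm7, from the same cluster, was higher on both diets than on control. Its log2 ratio ranged from -0.69 to -0.033 in control (median -0.39), from -0.017 to 0.49 on high protein (median 0.33) and from -0.078 to 0.60 on high fat (median 0.35). High protein and control did not overlap, but the gap was narrow, with control 7 at -0.033 and high protein 3 at -0.017. On high fat 5 of 6 rats lay above every control rat, and rat 6 did not. The difference from control was 0.69 ± 0.12 for high protein (1.62-fold, adjusted p = 0.0127) and 0.71 ± 0.12 for high fat (1.63-fold, adjusted p = 0.00154). High protein minus high fat was -0.017 ± 0.12 (adjusted p = 0.970), with a 95% interval from -0.27 to 0.24. These 2 differences from control share the 7 control rats. Scaling the ratios between arrays ended the calls of Gstm4 (0.92, adjusted p = 0.0541) and Gstm7 (0.69, adjusted p = 0.180) in high protein against control, and changed neither the Gstm4 call against high fat nor the Gstm7 call on high fat.

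**Figure D1:**
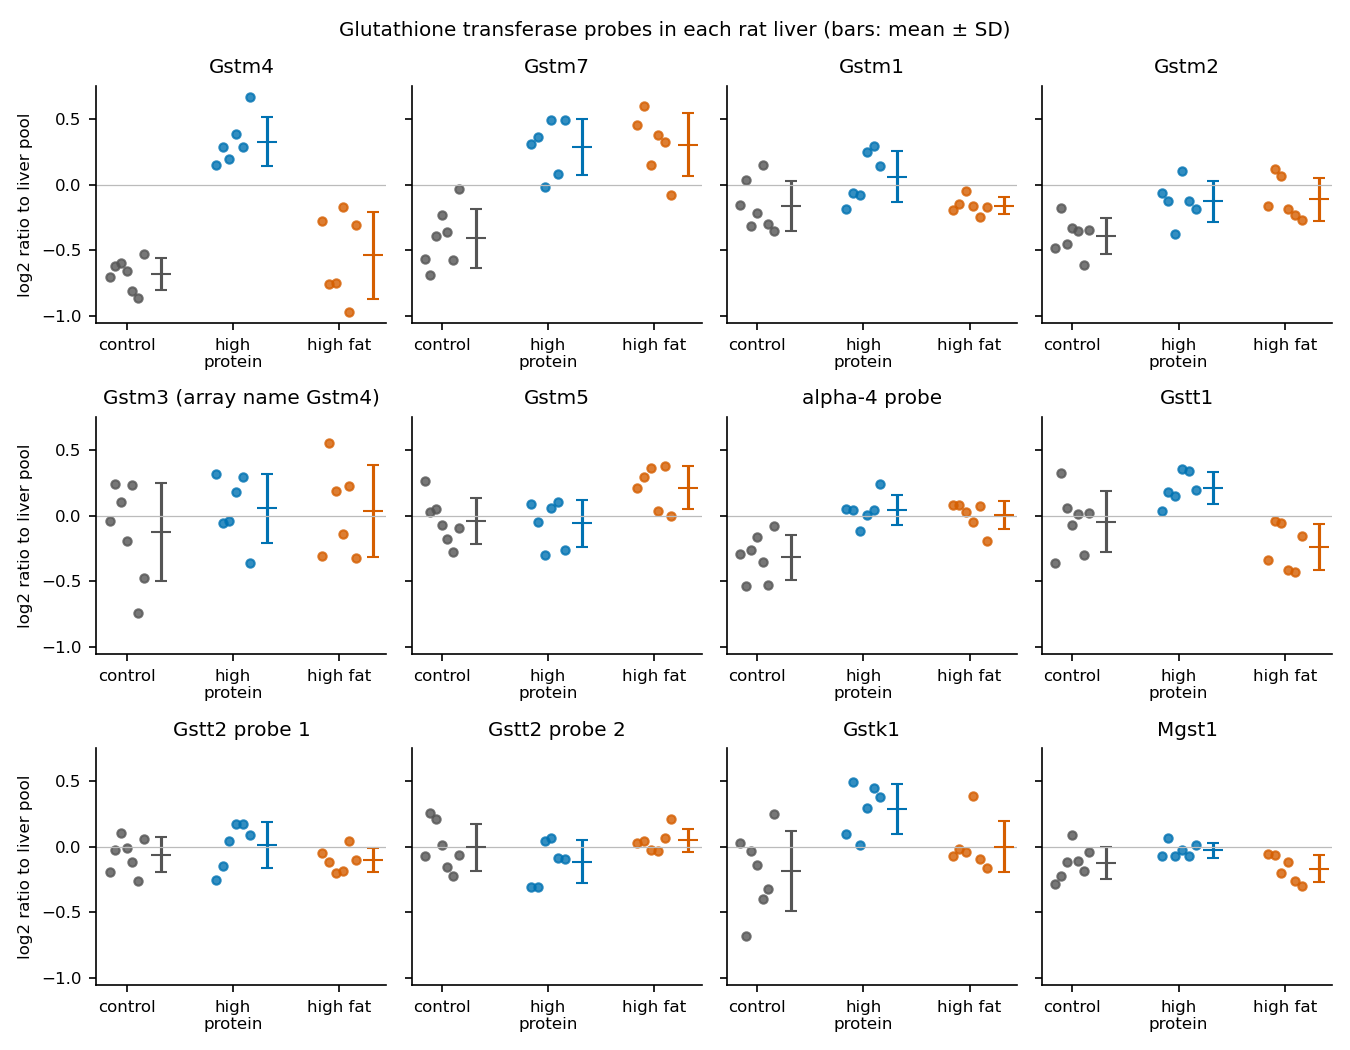
Log2 ratio to the liver pool for the 11 member probes kept and the alpha-4 probe in each of 7 control, 6 high protein and 6 high fat rats, with mean and SD beside the points. All 6 high protein points of Gstm4 lie above its control and high fat points, whereas Gstm7 is raised on both diets against control.

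Of the 11 member probes tested, 2 passed an adjusted p of 0.05 in high protein against control, Gstm4 and Gstm7, both higher. Over all 25292 probes 0.447% passed, 0.308% as higher and 0.138% as lower. In the same comparison the groups did not overlap for these 2 members, against 0.783% of all probes. The median difference of the 11 was 0.22, against -0.0096 over all probes, and 9 were positive, against 46.4% of all probes. Against control, high fat gave 1 called probe of 11, Gstm7, against 3.46% of all probes (1.72% higher, 1.73% lower), and for none of the 11 were the groups apart, against 1.90% of all probes. The median difference was 0.14, against -0.011. Between high protein and high fat 2 of 11 passed, Gstm4 and Gstt1, both higher on high protein, against 7.08% of all probes (3.81% higher, 3.27% lower). The groups were apart for both, against 4.98% of all probes, and the median difference was 0.12, against -0.0014. A moderated F test for any difference between diets called Gstm4 (adjusted p = 0.000109), Gstm7 (adjusted p = 0.000711) and Gstt1 (adjusted p = 0.0257), against 6.58% of all probes. The members were chosen with earlier results of these data known, so these shares and medians describe the set and do not test it.

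**Figure D2:**
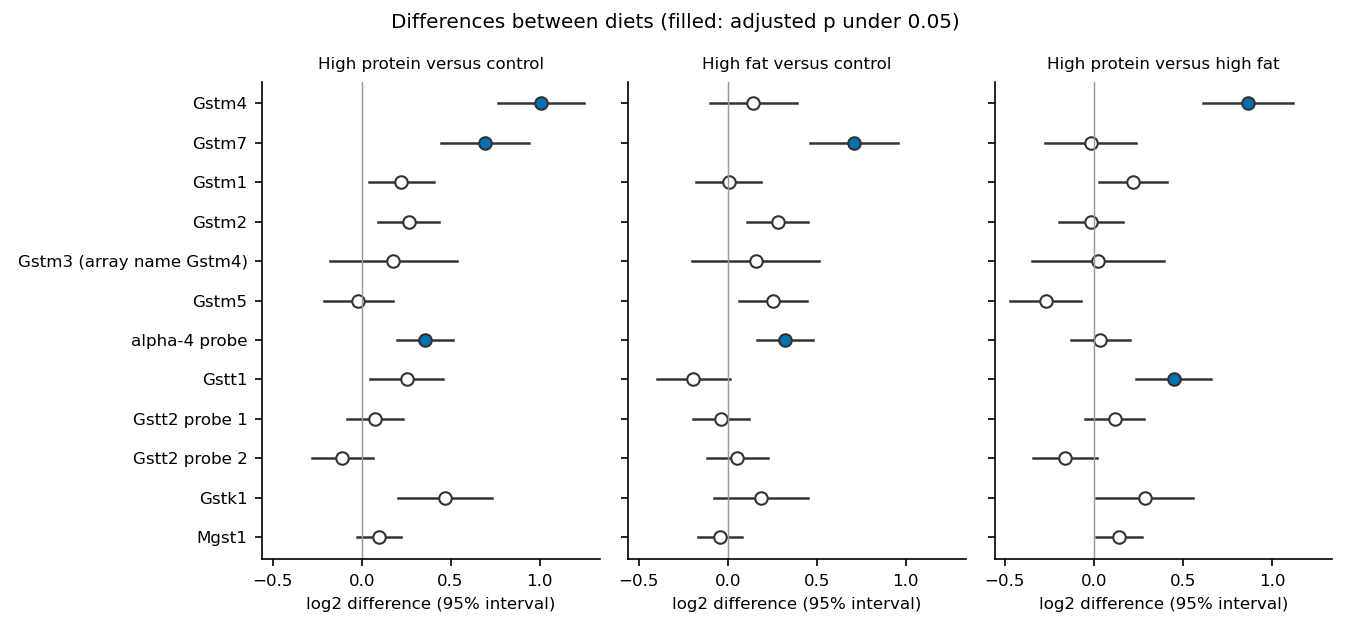
Log2 differences between diets with 95% intervals from limma for the 11 member probes and the alpha-4 probe in 3 comparisons, filled where the adjusted p is under 0.05. Gstm4 is filled in the outer panels, Gstm7 in the first and middle panels, Gstt1 in the last, and the alpha-4 probe in the first and middle.

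The other mu-class probes gave smaller differences, none of which passed. Gstm2, an abundant liver mu subunit, had log2 ratios from -0.61 to -0.18 in control (median -0.35), -0.37 to 0.10 on high protein (median -0.12) and -0.27 to 0.12 on high fat (median -0.18). Its difference from control was 0.26 ± 0.08 for high protein (adjusted p = 0.150) and 0.28 ± 0.08 for high fat (adjusted p = 0.0678). Control lay lowest on average, and the groups overlapped.

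Gstm1, another abundant liver subunit, ranged from -0.35 to 0.15 in control (median -0.22), -0.18 to 0.29 on high protein (median 0.037) and -0.24 to -0.050 on high fat (median -0.17). High protein minus control was 0.22 ± 0.09 (adjusted p = 0.243) and high protein minus high fat 0.22 ± 0.09 (adjusted p = 0.168). High fat minus control was 0.0042 (adjusted p = 0.991), with a 95% interval from -0.18 to 0.19. High fat values were close together and lay within the control range.

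Gstm3, the probe that the array calls Gstm4, had the widest spread within diets of the members. It ranged from -0.74 to 0.24 in control (median -0.039), -0.36 to 0.31 on high protein (median 0.067) and -0.32 to 0.56 on high fat (median 0.026). Its differences were 0.18 ± 0.17 for high protein (adjusted p = 0.665) and 0.16 ± 0.17 for high fat against control (adjusted p = 0.710). Read by its array name, this probe would give a Gstm4 with no called difference, whereas the probe now assigned to Gstm4 differed as described above.

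Gstm5 ranged from -0.28 to 0.26 in control (median -0.071), -0.30 to 0.10 on high protein (median 0.0050) and 0.00025 to 0.38 on high fat (median 0.25). It was the one mu-class probe whose mean was higher on high fat than on both other diets by more than 0.2, but neither difference passed: high fat minus control was 0.25 ± 0.09 (adjusted p = 0.162) and high protein minus high fat -0.27 ± 0.10 (adjusted p = 0.0970). The second of these passed, lower on high protein, in 2 of 12 alternative settings, with normexp fitted on every spot (-0.29, adjusted p = 0.0394) and with array quality weights (-0.30, adjusted p = 0.0212). The other 2 Gstm5 probes, A_44_P517296 and A_44_P517303, come from 1 expressed sequence tag and are listed on the opposite strand. Their Cy5 signal was not well above background on any of the 19 arrays, so they were not tested.

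Mu-class sequences are alike, and a probe may take signal from a neighbour. Probe sequences were not used here, and such shared signal was not tested. Over the 19 arrays the 15 pairs of the 6 kept mu-class probes had Pearson correlations from -0.35 to 0.74 with a median of 0.40. With the diet means removed they ran from -0.50 to 0.64 with a median of 0.11. Gstm4 and Gstm7 correlated at 0.51, and at 0.16 with diet means removed. Gstm4 minus Gstm7 within a rat averaged -0.27 ± 0.20 in control (SD, n = 7), 0.041 ± 0.17 on high protein (n = 6) and -0.84 ± 0.44 on high fat (n = 6).

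The alpha-4 probe, for the alpha-class enzyme known for conjugating hydroxynonenal, a product of lipid peroxidation, had the pattern nearest to that of Gstm7. It spans chr8:83172208-83176843 (rn4, plus strand). Its log2 ratio ranged from -0.53 to -0.076 in control (median -0.29), -0.12 to 0.24 on high protein (median 0.041) and -0.19 to 0.083 on high fat (median 0.053). On each diet 5 of 6 rats lay above every control rat. The difference from control was 0.36 ± 0.08 for high protein (adjusted p = 0.0415) and 0.32 ± 0.08 for high fat (adjusted p = 0.0198), and high protein minus high fat was 0.037 (adjusted p = 0.880; 95% interval -0.13 to 0.20). The high protein call was near the threshold: it held in 4 of 12 alternative settings and 6 of 19 omissions of 1 rat, among which leaving out control 6 gave 0.32 (adjusted p = 0.0617). The high fat call held in 7 of 12 settings and 18 of 19 omissions. With slide as a block in the fit neither call held, at similar sizes (0.36, adjusted p = 0.101, and 0.34, adjusted p = 0.0886). Across 19 arrays the probe correlated with Gstm7 at 0.92, and at 0.78 with diet means removed.

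A pair of further probes described on the array as similar to glutathione S-transferase 8, a name also given to the alpha-4 enzyme, lie on other chromosomes (3 and 6). They followed the alpha-4 probe closely, with correlations of 0.97 for A_44_P227286 and 0.99 for A_44_P380218 over 19 arrays. The first differed from control by 0.34 on high protein (adjusted p = 0.0778) and 0.34 on high fat (adjusted p = 0.0304), the second by 0.33 (adjusted p = 0.0325) and 0.31 (adjusted p = 0.0123). Without control 6 the second did not pass on high protein (0.31, adjusted p = 0.0542). Whether the 3 probes read 1 transcript was not tested, so they are not counted as independent measurements.

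**Figure D3:**
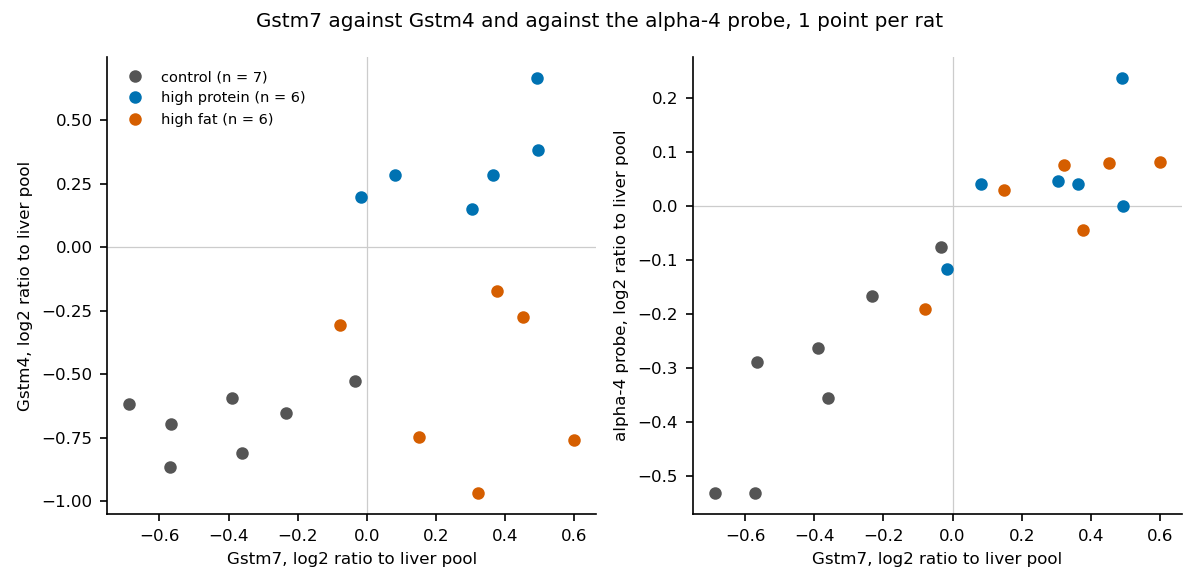
Log2 ratio to the liver pool of Gstm4 (left) and of the alpha-4 probe (right) against that of Gstm7, 1 point per rat, coloured by diet. On high fat 5 of 6 rats lie above every control rat for Gstm7 while their Gstm4 values overlap with control, whereas the alpha-4 probe rises with Gstm7 across all 19 rats (r = 0.92).

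Of the theta class, Gstt1 separated high protein from high fat. This class is known for handling small halogenated compounds. Gstt1, probed at chr20:13606684-13606743 (rn4, minus strand), ranged from -0.36 to 0.32 in control (median 0.014), 0.037 to 0.35 on high protein (median 0.19) and -0.43 to -0.039 on high fat (median -0.25). The high protein and high fat rats did not overlap, and control rats spanned most of both ranges. High protein minus high fat was 0.45 ± 0.10 (1.36-fold, adjusted p = 0.0101). Neither diet passed against control: the differences were 0.25 ± 0.10 for high protein (adjusted p = 0.237) and -0.19 ± 0.10 for high fat (adjusted p = 0.354). With Cy5 signals alone, without the pool, the difference between high protein and high fat was 0.37 and did not pass (adjusted p = 0.150).

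Gstt2 was read by 2 probes about a kilobase apart, A_44_P194256 at chr20:13224236-13224295 and A_44_P547801 at chr20:13225289-13225348 (rn4, plus strand). The first ranged from -0.26 to 0.11 in control, -0.25 to 0.17 on high protein and -0.20 to 0.040 on high fat. The second ranged from -0.22 to 0.25, -0.31 to 0.065 and -0.031 to 0.21 in the same order. The probes differed in sign in all 3 comparisons, with high protein minus high fat at 0.12 for the first (adjusted p = 0.456) and -0.16 for the second (adjusted p = 0.298). None of the 6 differences passed, and the probes correlated at 0.46 over 19 arrays and at 0.72 with diet means removed.

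Gstk1, the kappa-class enzyme of mitochondria and peroxisomes, had the next largest member difference after Gstm4 and Gstm7 in high protein against control, but it did not pass. Its probe lies at chr4:70003892-70003951 (rn4, plus strand). Log2 ratios ranged from -0.68 to 0.25 in control (median -0.14), 0.013 to 0.49 on high protein (median 0.33) and -0.16 to 0.39 on high fat (median -0.055). High protein minus control was 0.47 ± 0.13 (adjusted p = 0.103), and 4 of 6 high protein rats lay above every control rat. Leaving out control 7, the highest control rat, gave 0.54 (adjusted p = 0.0279), and array quality weights gave 0.51 (adjusted p = 0.0393). These raised the calls over all probes as well, from 113 to 460 and to 289. In all, the Gstk1 difference passed in 1 of 12 alternative settings and 1 of 19 omissions. High fat minus control was 0.19 ± 0.13 (adjusted p = 0.525).

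Mgst1, the microsomal membrane enzyme, had the narrowest spread of the members on high protein. It ranged from -0.28 to 0.085 in control (median -0.12), -0.072 to 0.069 on high protein (median -0.049) and -0.30 to -0.058 on high fat (median -0.16). High protein minus high fat was 0.14 ± 0.06 (adjusted p = 0.194), high protein minus control 0.098 (adjusted p = 0.466) and high fat minus control -0.042 (adjusted p = 0.782). Its 95% interval against control ran from -0.025 to 0.22 for high protein and from -0.16 to 0.081 for high fat.

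The arrays were run on 5 slides, each scanned once, which hold different mixes of the diets. High protein and control shared slides 2, 4 and 5, high fat and control slides 1, 3 and 4, and high protein and high fat only slide 4. For Gstm4, high protein minus control was 0.95, 0.97 and 1.30 on slides 2, 4 and 5, and high fat minus control -0.12, 0.11 and 0.42 on slides 1, 3 and 4. For Gstm7, high protein minus control was 0.42, 0.96 and 0.81, and high fat minus control 0.83, 0.60 and 1.02 on the same slides. Slides 3, 4 and 5 each held 1 control rat, and on slide 5 this was control 6, described below. On slide 4 high protein minus high fat was 0.54 for Gstm4 and 0.53 for Gstt1, from 2 rats against 1. With slide as a block in the fit, Gstm4 remained called against control (0.99, adjusted p = 0.0210) and against high fat (0.87, adjusted p = 0.0264), and so did Gstm7 on high fat (0.76, adjusted p = 0.0113) and Gstt1 (0.59, adjusted p = 0.0176). Gstm7 on high protein kept its size but not its call (0.67, adjusted p = 0.0802). Gstm2 passed against control in that fit, with 0.34 for high protein (adjusted p = 0.0440) and 0.27 for high fat (adjusted p = 0.0364).

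**Figure D4:**
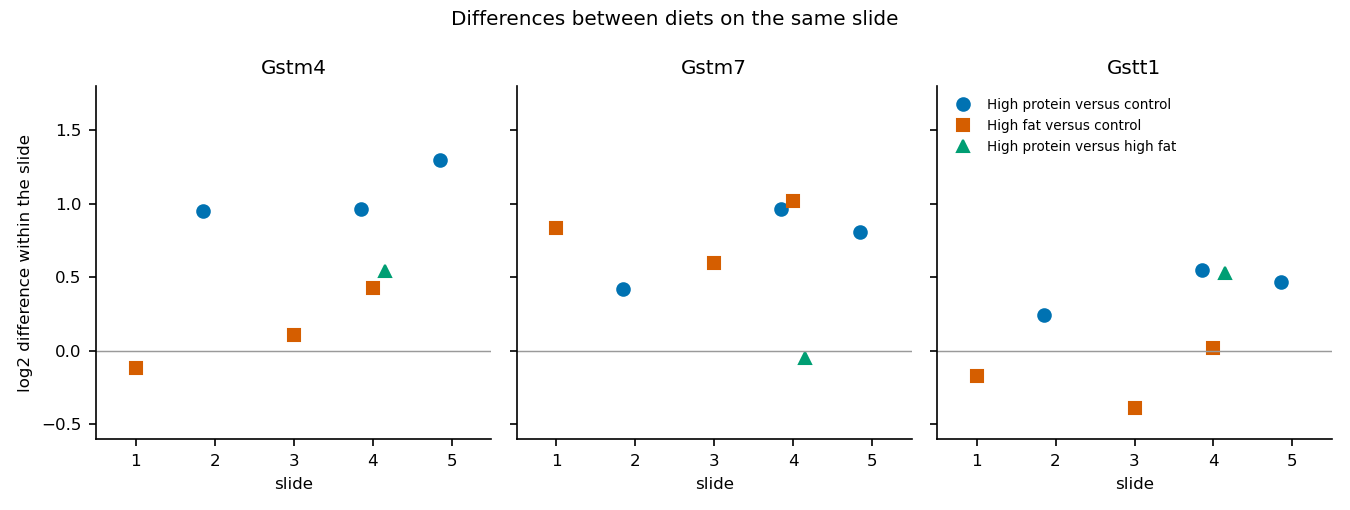
Log2 differences between rats on different diets on the same slide for Gstm4, Gstm7 and Gstt1, 1 symbol per slide and comparison, from 1 to 3 rats per diet. High protein minus control lies above 0 on all 3 slides for each gene, and high fat minus control lies above 0 on all 3 slides for Gstm7 but not for Gstm4 or Gstt1. The only control rat on slide 5 was control 6.

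One library stood apart. In control 6 the median of the lymphocyte markers, 7 of 18 listed being measured, was 2.41 in log2 ratio, against -0.92 to -0.63 in the other 18 rats, and the SD of its log2 ratios over all probes was 0.44, against 0.20 to 0.29. The summed ratio of these markers reached 49.4 in that rat and lay between 3.31 and 3.97 in the others. Without control 6 Gstm4 on high protein differed from control by 0.98 (adjusted p = 0.00287) and Gstm7 by 0.66 (adjusted p = 0.0275), Gstm7 on high fat by 0.68 (adjusted p = 0.00210), and Gstt1 between high protein and high fat by 0.45 (adjusted p = 0.00571). Control 6 is in neither group of that last comparison, so leaving it out could change only the shared spread and the adjustment there. The numbers of members called stayed at 2, 1 and 2. All 12 hepatocyte markers were well above background on all 19 arrays. Of these 12, Cps1 was called higher in high protein against control (0.62), and Ambp was called lower in high fat against control (-0.37). In high protein against high fat 5 were called, all higher. Of the 7 not called there, Apob (-0.27) and Apoa1 (-0.40) were lower at an unadjusted p under 0.05 by limma. The medians of the 12 per rat ran from 0.098 to 0.35 in control, 0.26 to 0.51 on high protein and 0.17 to 0.29 on high fat. The part of these marker differences in the Gstm4 and Gstt1 differences was not tested. Rgs5, of 9 stellate cell markers measured, was called on both diets against control (0.45 and 0.60). Reln, another of them, was called on high fat (0.52) and was lower on high protein than on high fat (-0.35, adjusted p = 0.0433), and their part in the Gstm7, Gstm4 and Gstt1 differences was not tested. The summed ratio of these 9 markers ran from 7.95 to 12.4 in control, 8.31 to 13.3 on high protein and 8.79 to 13.6 on high fat. Lyz2, of 11 macrophage markers, was 0.77 higher on high protein than on high fat (adjusted p = 0.0352). The other 10 were not called there and had differences of both signs, and the median of the 11 was 9.1e-05. No endothelial, bile duct or red blood cell marker was called.

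A list of 25 transferases and related proteins included Gstm3, which is described above and was left out here. Of the other genes 18 were on the array and 16 were measured. None (0 of 16) passed in high protein against control by limma, where 1 had an unadjusted p under 0.05 and 0.447% of all probes passed. High fat against control called 1 of 16, beside 3.46% of all probes, and high protein against high fat 1 of 16, beside 7.08%. In both this was Gsto1, an omega-class enzyme known for reductase activity. Its log2 ratio ranged from -0.23 to 0.013 in control, -0.25 to 0.24 on high protein and 0.086 to 0.41 on high fat. High fat rats lay above every control rat and overlapped high protein. Gsto1 was 0.35 ± 0.07 higher on high fat than on control (adjusted p = 0.00838) and 0.28 ± 0.08 lower on high protein than on high fat (difference -0.28, adjusted p = 0.0267). A probe without a current name that the array describes as omega 1 (A_43_P15659) correlated with it at 0.75 and gave 0.26 on high fat (adjusted p = 0.0566), with high protein minus high fat at -0.034 (adjusted p = 0.885), so the probes differ on the second comparison. Gstt3, of the theta class, gave 0.63 ± 0.17 on high protein against control but did not pass (adjusted p = 0.114). The alpha subunits Gsta1, Gsta2 and Gsta3 did not pass in any comparison. Nor did the pi subunit Gstp1, whose 2 probes stood at 1.86 and 1.52 in control 6 and between -0.44 and -0.11 in the other control rats. High protein minus control was -0.28 ± 0.26 and -0.21 ± 0.24 for these probes, and 0.018 ± 0.11 and 0.051 ± 0.12 without control 6, where they did not pass either (adjusted p = 0.963 and 0.893).

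Of 28 measured genes that make, recycle or break down glutathione, 1 passed in high protein against control, where 0.447% of all probes did. This was Cbs, which feeds homocysteine toward cysteine (0.62 ± 0.10, adjusted p = 0.00846). High fat against control called 2 of 28, both higher, beside 3.46% of all probes: Hagh, a glyoxalase enzyme (0.30, adjusted p = 0.00353), and Glrx, a glutaredoxin (0.41, adjusted p = 0.00843). Between high protein and high fat 5 were higher and 1 lower, beside 7.08% of all probes called in either direction, among them Cbs (0.46), Glrx2 (0.29), Gss, the glutathione synthetase (0.34), and Glrx (-0.44). The list medians were 0.054, 0.014 and 0.0093 in that order, against -0.0096, -0.011 and -0.0014 over all probes. The same shares and medians over all probes apply to the lists that follow.

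Among 30 measured genes linked to Nrf2, the transcription factor known for driving many transferase genes, 1 passed in high protein against control, the quinone reductase Nqo1 (0.63 ± 0.12, adjusted p = 0.0296). High fat against control called 1 higher, the carboxylesterase Ces2c (0.56), and 3 lower, among them Tkt (-1.02) and Me1 (-2.12). Between high protein and high fat 5 were higher and 1 lower, with Tkt (0.90) and Me1 (1.77) among those higher and Aldh1a1 lower (-1.81). The list medians were -0.051, -0.11 and 0.030. Tkt, a transketolase, and Me1, the malic enzyme, also serve sugar and fat metabolism.

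Genes linked to the drug receptors CAR and PXR did not pass in high protein against control by limma (0 of 27, with 4 at an unadjusted p under 0.05, 1 higher and 3 lower). On high fat against control 4 of 27 were higher and 1 lower, with Cyp3a2 (1.27), Nr1i3, which encodes CAR (1.19), Cyp2c6v1 (0.84) and Cyp3a62 (1.13) higher. On high protein against high fat 6 were lower, among them Cyp3a2 (-1.24), Aldh1a1 (-1.81), Nr1i3 (-1.09) and Cyp3a62 (-1.03), and 0 were higher by limma, where 1 was higher at an unadjusted p under 0.05. Of 28 genes for other conjugating enzymes, Nnmt, which methylates nicotinamide, passed in high protein against control (0.73 ± 0.13, adjusted p = 0.0164). On high fat against control 3 were higher, Sult1e1 (0.86), Glyatl2 (0.57) and Nat8 (1.26), and 1 was lower. On high protein against high fat 2 were higher and 4 lower.

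For each called member gene the 3 genes outside the family with the most similar profile were sought among 10812 named genes, by Pearson correlation over 19 arrays, as a description. For Gstm4 these were Dnase2b (r = 0.84), Fam3a (0.82) and Farp2 (0.82), which fell to 0.29, 0.40 and 0.22 with diet means removed. All 3 were also called in high protein against control: Dnase2b (1.18, adjusted p = 0.00563), Fam3a (0.23, adjusted p = 0.0325) and Farp2 (0.33, adjusted p = 0.0158). Between high protein and high fat Dnase2b (1.03, adjusted p = 0.00116) and Farp2 (0.28, adjusted p = 0.00684) passed, and Fam3a did not (0.14, adjusted p = 0.0808). For Gstm7 they were Ivd, a leucine breakdown enzyme (0.88), Gcsh of the glycine cleavage system (0.87) and Atox1, a copper chaperone (0.87), at 0.85, 0.71 and 0.67 with diet means removed. For Gstt1 they were Cttn (0.87), Hal, the histidine breakdown enzyme (0.86), and Tbc1d10b (0.86), at 0.77, 0.75 and 0.73. Of the genes found for Gstm7 only Gcsh passed by limma, in high fat against control (0.21, adjusted p = 0.0327). Of those found for Gstt1 only Hal passed, between high protein and high fat (0.39, adjusted p = 0.00782). All these genes were chosen for their correlation over the same 19 arrays. Their calls and the values with diet means removed are therefore not independent of the choice. All points share the common pool and the normalization.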

How the data were processed

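Liver RNA of 19 rats (7 control, 6 high protein, 6 high fat) was hybridised to Agilent rat arrays, and groups and replicate numbers came from the labels. The deposited scanner files, made with Agilent Feature Extraction 10.5.1.1 per the file headers, give each spot's intensity and that of its surroundings. The authors also deposited a matrix of log2 values for 22764 features, with a median of 8.21 on each array and steps not given in the sources used here. After centring of each feature it followed the log ratios at r of 0.912 to 0.975 per array, so its direction is that of rat over pool, and it served as an alternative.

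Mean signals minus background medians were corrected by normexp (offset 50) after removal of 40 spots that were darker than their surroundings by over 50. Log2 ratios of Cy5 over Cy3 were normalised by loess within arrays, with no step between arrays, so the alternatives include scaling. Outlier spots were dropped and spots of 1 probe averaged, and no value of a member was missing. Probes entered the tests if the scanner marked Cy5 as well above background on 6 or more of 19 arrays. All 11 member probes kept were above background on all 19 arrays and none was saturated. Between 54.2% and 67.5% of probes per array were well above background in Cy5, and the number of arrays limits the precision.

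In R 4.3.3, limma 3.58.1 fitted 1 model of 3 diet groups with moderated two-sided tests (16 residual and 3.32 prior degrees of freedom) and Benjamini-Hochberg adjustment over all 25292 probes. The script was tested on simulated data. Alternatives changed background, channel, normalization, filter, probe choice, slide, replicate block and weights, or left out 1 rat. The values of non-member transferases without control 6 were added after the data were seen. Like-numbered rats of different diets did not deviate together: 18 pairs had a mean correlation of -0.0092, against 0.0011 for 102 other pairs, so no pairing was used.

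The members and gene lists were chosen with earlier results of these data known. Named genes are all member probes, other transferase genes called, up to 4 called genes of smallest p per list and comparison, marker genes called beside a result, and the 3 most correlated genes per called member. Some transferase and marker genes that were not called, such as Gstt3, Gstp1 and Apob, are named as well, outside this rule. Of 41012 probes 21173 had no gene name through accession, symbol or synonym. Some single-gene values that the naming rule covers are not reported here, and those genes stay in the counts and medians of their lists.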

Additional observations from a re-analysis of the deposited data

Results flagged for a closer look

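The Gstk1 probe in high fat rat 4 stood out from its group: its log2 ratio was 0.39, against -0.019 in the next highest of the 6 high fat rats, a gap of 0.74 of the group's range, above Dixon's 95% critical value. In the 36 groups of 6 or 7 rats examined, it was the 1 rat to pass, and chance gives about 1 in 20.

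For 2 member probes the high protein and high fat effects differed. Both effects are against the same control rats, whose mean cancels, so this is the comparison of high protein with high fat already given and no further test. The difference was 0.87 for Gstm4 (limma, adjusted p = 0.000185) and 0.45 for Gstt1 (adjusted p = 0.0101). All 6 high protein rats lay above all 6 high fat rats for both probes.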

How the results depend on the processing

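Where not said otherwise, numbers are of member probes called, then of all probes. In high protein against control, scaling between arrays gave 0 and 4 (Gstm4 0.92, adjusted p = 0.0541; Gstm7 0.69, adjusted p = 0.180; 5 of 11 at an unadjusted p under 0.05; 2 and 113 as reported), and control 6 has the widest log ratios. All probes called were 61 with normexp on every spot, 54 with processed signals, 63 with Cy5 alone, 32 with median centring, 24 with slide as a block, 209 with the replicate block and 289 with array weights. In high fat against control, slide as a block gave 2 and 474 (1 and 874 as reported). In high protein against high fat, Cy5 alone gave 1 member (Gstt1 0.37, adjusted p = 0.150), slide as a block gave 365 probes and weights 3107 (1791 as reported). Weights and normexp on every spot each gave 3 members there, the third being Gstm5, lower (-0.30 and -0.29, adjusted p = 0.0212 and 0.0394). The F test called 525 with slide as a block (1663 as reported). Leaving out 1 rat gave 2 to 3, 1 to 2 and 2 members in the 3 comparisons, 26 to 460, 649 to 999 and 1332 to 2518 probes, and 1254 to 2141 by the F test. The count of 3 came without control 7 (Gstk1), and those of 2 in high fat without control 2 or high protein 3 (Gstm2). The 460 came without control 7 and the 26 without high protein 2 or 6.

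Over 12 other settings Gstm4 kept its call in 11 against control (0.92 to 1.11) and in 12 against high fat (0.84 to 1.05), Gstm7 in 10 on high protein (0.67 to 0.79) and 12 on high fat (0.69 to 0.77), and Gstt1 in 11 (0.37 to 0.59). Each kept these calls in all 19 omissions, with adjusted p up to 0.0491 for Gstm7 on high protein. In each comparison, leaving out a rat of the third diet cannot move the difference, only the shared spread and the adjustment. The same holds for the other counts over 19 omissions given above. The replicate block changed no call of a member probe. Under no setting did a called member difference change sign. No scaling moved the median of all probes by over 0.1. The split of calls into higher and lower in high protein against control (78 and 35 as reported) became 32 and 29 with normexp on every spot, 50 and 13 with Cy5 alone, 27 and 5 with median centring, 4 and 0 with scaling, and 81 and 9 with the deposited values. That in high fat against control (436 and 438) became 285 and 463 with median centring, and that between high protein and high fat (964 and 827) 925 and 518. The cause of these changes was not tested.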

Other observations

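A few probes listed on the strand opposite to a member gave signal well above background on all 19 arrays, unlike the pair of opposite-strand Gstm5 probes. A_44_P148634, at chr4:70003916-70003975 (rn4) and overlapping the Gstk1 probe, correlated with it at 0.82 and gave 0.19 in high protein against control (adjusted p = 0.150). A_44_P182008, between the Gstt2 probes at chr20:13225141-13225200, correlated at 0.86 with the second Gstt2 probe and at 0.32 with the first. A_44_P467175, at chr2:203606016-203606075 beside the Gstm4 probe, correlated with Gstm4 at 0.66 and gave 0.25 in high protein against control (adjusted p = 0.138), a smaller value than the 1.01 of Gstm4. None of the 3 passed in any comparison, and these probes were picked after their positions and values were seen.

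Probes described as 1 transferase agreed to different degrees over the 19 arrays. The pair described as theta 3 (Gstt3 and A_44_P852862) correlated at 0.96, the 3 described as microsomal 3 at 0.95 to 0.99, the pair for Gsta2 at 0.79, the omega 1 pair at 0.75 and the Gstt2 pair at 0.46.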
